A study of Arabidopsis thaliana with 12 samples.

Results

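Calmodulins and calmodulin-like proteins (CML) are calcium sensors of plant cells that work without an enzyme domain of their own. They hold calcium in EF hands, short loops of acidic residues between helices, and on binding it they change shape and act on other proteins such as pumps, channels, kinases and transcription factors. Calmodulins are nearly identical to each other and are made in most cells, whereas CML proteins differ widely and many of their genes are known in Arabidopsis for responses to touch, wounding, pathogens or low oxygen.

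Members were the rows of the deposited gene table whose name is CAM or CML followed by a number, with AT2G41100 (TCH3, also CML12) added by its identifier. The rule found 57 of 32705 rows, 7 of them calmodulins and 50 CML genes. In 3 rows, those of CML19, CML27 and CML42, the value is shared with a neighbouring gene of another kind, so it cannot be assigned to the sensor gene. The table gives a protein's name to several calmodulin genes, and these are called CAM1 to CAM7 here by the symbols of the TAIR10.1 annotation. CML names are those of the table and can differ from other sources. AT2G15680, CML1 in the table, is CML30 in the annotation, and CML30 here is AT3G29000. A role described under a CML number can thus belong to another gene.

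Polyadenylated RNA of whole Arabidopsis thaliana seedlings (Columbia) was sequenced at an age of 10 days. All 12 libraries came from the tfIIs-1 background, which disrupts TFIIS, a factor that helps RNA polymerase II in transcript elongation, and carried a transgene for GFP-TFIIS or for the mutated GFP-TFIISmut that estradiol switches on. Each line received 2 mM b-estradiol (the concentration as labelled) or ethanol as mock for 24 h, with 3 libraries per condition. The groups are called TFIIS mock, TFIIS induced, TFIISmut mock and TFIISmut induced. Plants without the transgene were not analysed here, and the labels do not name the promoter behind the estradiol switch or the number of independent lines. The study asked how expression of mutated TFIIS changes the transcriptome.

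The table holds 1 pooled value per gene and condition, so replicate error cannot be given and no difference could be tested. The unit was taken to be FPKM, which accounts for gene length and sequencing depth; no header states it, and the 4 columns were assigned to the conditions from their abbreviated names. Differences between pools are those of log2(FPKM + 1). A difference of 1 or more is called 2-fold where the larger FPKM is at least 5 and neither pool is at 0, and genes that meet these criteria of level are called eligible. This scale understates the differences of low genes. As a check on the columns, the row of TFIIS itself stood at 21.1 and 742 FPKM in TFIIS mock and induced, and at 17.6 and 87.0 FPKM in TFIISmut mock and induced; below, 4 values in a row keep this order. Of the tissue markers, the 4 of leaf summed to 5438, 4559, 5711 and 2734 FPKM in that order and the 4 of root to 1054, 1218, 1215 and 1235 FPKM. Most of the root sum was PYK10; of the other root markers, CASP1 was at 22.8, 22.4, 21.3 and 11.4 FPKM, lower in TFIISmut induced like the leaf sum. COBL9 and TIP2-3 lay under 5 FPKM in every pool and were lowest in TFIISmut induced, at 1.05 and 0.541 FPKM. Those of pollen and seed stayed at 1.66 FPKM or less in sum. In bulk seedlings, fewer cells of a type and less RNA per cell cannot be told apart.

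The calcium-binding loops of the calmodulin genes are shown because they tell how well reads of these near copies can be separated. The second EF-hand loop is given as coding DNA, 36 bases from 5′ to 3′ on the gene's strand, from RefSeq TAIR10.1. Capitals mark bases that differ from CAM7.
CAM7, chr3:15664865-15664900, minus strand: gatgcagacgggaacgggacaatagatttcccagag
CAM6, chr5:7214986-7215021, minus strand: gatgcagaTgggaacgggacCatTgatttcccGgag
CAM3, chr3:21035227-21035262, minus strand: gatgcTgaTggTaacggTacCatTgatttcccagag
CAM2, chr2:17140911-17140946, plus strand: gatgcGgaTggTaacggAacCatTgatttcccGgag
CAM5, chr2:11532779-11532814, plus strand: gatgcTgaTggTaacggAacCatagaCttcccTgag
CAM1, chr5:15005015-15005050, minus strand: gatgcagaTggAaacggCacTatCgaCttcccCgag
CAM4, chr1:24774677-24774712, minus strand: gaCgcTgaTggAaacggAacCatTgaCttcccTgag

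Across the 21 pairs of calmodulin genes the coding sequences of 450 bases were 82.7% to 91.3% identical. Where several coding models are annotated for a calmodulin gene, that of 450 bases was compared. In 4 pairs, CAM1 with CAM4 and the pairs among CAM2, CAM3 and CAM5, the proteins of these models were identical. Within these models the coding sequences of such a pair thus differ in codons alone. Other annotated models were not compared. The longest identical stretch of any pair was 41 bases, between CAM2 and CAM3. The authors' treatment of reads that match several genes, not given in the sources used here, leaves the levels of single calmodulin genes uncertain to that extent.

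The next loops belong to the 7 CML genes with the largest differences after TFIISmut induction, with CAM7 for comparison. For each, the first loop that lies within a single exon is shown (loop 2 for CAM7), and capitals mark codons 1, 3, 5 and 12, which encode calcium-holding residues of the EF hand.
CAM7, chr3:15664865-15664900, minus strand: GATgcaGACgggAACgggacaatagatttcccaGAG
CML45, chr5:15883702-15883737, plus strand: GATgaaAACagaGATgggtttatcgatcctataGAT
CML41, chr3:18874203-18874238, plus strand: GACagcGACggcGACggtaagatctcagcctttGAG
CML40, chr3:296498-296533, plus strand: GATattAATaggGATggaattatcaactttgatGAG
CML12 (TCH3), chr2:17138399-17138434, plus strand: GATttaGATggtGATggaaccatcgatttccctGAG
CML47, chr3:17496498-17496533, minus strand: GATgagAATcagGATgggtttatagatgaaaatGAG
CML37, chr5:16943109-16943144, minus strand: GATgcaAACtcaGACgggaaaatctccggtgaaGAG
CML10, chr2:17136094-17136129, plus strand: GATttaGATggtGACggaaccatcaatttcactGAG

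After TFIISmut induction a set of CML genes stood above the mock pool, by log2 differences from 1.0 to 3.63. No calmodulin gene reached the threshold, but with 7 genes and the share over all rows given below, 0 is no result about them. Of the 57 rows, 36 were eligible; 13 of these passed as higher, each a CML gene, and 0 as lower. Among all eligible rows 5.51% passed as higher and 1.69% as lower, 796 against 244 rows, and 652 against 350 when the pools were rescaled to a common sum without organelle rows. Several of the members entered through that difference itself: 5 of the 13 (CML30, CML37, CML40, CML44 and CML45) lay under 5 FPKM in the other 3 pools and were eligible only through the pool in which they are high. With eligibility set by 5 FPKM in at least 1 of those other pools, a criterion chosen after seeing the data, 8 of 31 members were higher, against 3.49% of all rows so chosen. In the same comparison the leaf marker sum and the root marker CASP1 were lower, as given above, and their part in these differences was not tested.

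TCH3 (AT2G41100; chromosome 2, 17137037 to 17139700), named for its induction by touch, was the CML gene of highest level in both induced pools. It stood at 138 and 156 FPKM in the TFIIS line and at 100 and 885 FPKM in the TFIISmut line. The last pool was thus far above the other 3, with a log2 difference of 3.13 from its own mock. Its neighbour CML10 (AT2G41090; chromosome 2, 17135347 to 17136999), known to bind and activate phosphomannomutase in ascorbate synthesis, stood at 167, 111, 117 and 583 FPKM in the same order. It too was highest after TFIISmut induction, by 2.3 over mock, while in the TFIIS line the induced pool was the lower, at -0.59. The annotated genes of CML10 and TCH3 are 37 bases apart on the same strand. CAM2 (AT2G41110) follows after 1 other gene, with 116, 113, 120 and 219 FPKM; its log2 difference of 0.86 was the largest among the calmodulins but did not reach 1. The 3 neighbours thus shared a direction and differed in size. CML10 and CAM2 share a coding stretch of 34 identical bases, whereas CML10 and TCH3 share none of 30 bases or more.

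Low CML genes showed the largest ratios, which the criterion of level favours. CML45, CML40, CML44 and CML30 were eligible only because TFIISmut induced reached 5 FPKM. CML45 (AT5G39670; chromosome 5, 15883179 to 15884067) stood at 3.79 and 1.54 FPKM in the TFIIS line and at 1.98 and 36.0 FPKM in the TFIISmut line. It had the largest log2 difference of the family, 3.63, and an FPKM ratio of 18.2. The locus of its row spans 3210 bases against 889 for the annotated gene, and what the extra length adds to the value was not tested. CML40 (AT3G01830) stood at 2.16, 1.33, 1.05 and 18.9 FPKM, a log2 difference of 3.28. In CML40, as in CML45, the mock pool of the TFIIS line was the highest of the other 3 pools. That held also for CML44 (AT1G21550), at 3.19, 1.41, 1.78 and 10.3 FPKM, and for CML30 (AT3G29000), at 2.27, 1.17, 1.25 and 5.61 FPKM. Their log2 differences were 2.02 and 1.55.

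Among members with a known part in defence, CML41 (AT3G50770; chromosome 3, 18873911 to 18874836), which acts in the closure of plasmodesmata by callose after perception of bacterial flagellin, stood at 4.19, 5.55, 5.03 and 65.5 FPKM. Its other 3 pools were close together, and the log2 difference was 3.46. CML47 (AT3G47480), studied for an effect on salicylic acid levels, stood at 8.47, 5.94, 6.79 and 56.0 FPKM, a log2 difference of 2.87. The gene that the table names CML46 (AT3G59450) was at 1.25, 1.17, 1.31 and 1.5 FPKM and was not eligible. CML37 (AT5G42380), which promotes defence against chewing insects, was nearly silent at 0.547, 0.824 and 0.329 FPKM and stood at 5.82 FPKM in TFIISmut induced, a log2 difference of 2.36. CML9 (AT3G51920), which takes part in responses to flagellin, salt and abscisic acid, stood at 60.8, 61.0, 72.5 and 154 FPKM, a log2 difference of 1.07. Of 2 further such members, named after their values were seen, CML43, linked to cell death after infection, was at 3.57, 4.14, 3.38 and 3.43 FPKM and CML8, also studied in defence, at 1.83, 1.20, 2.19 and 1.94 FPKM. Both lay under 5 FPKM in every pool and so were not judged by the rule.

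**Figure D1:**
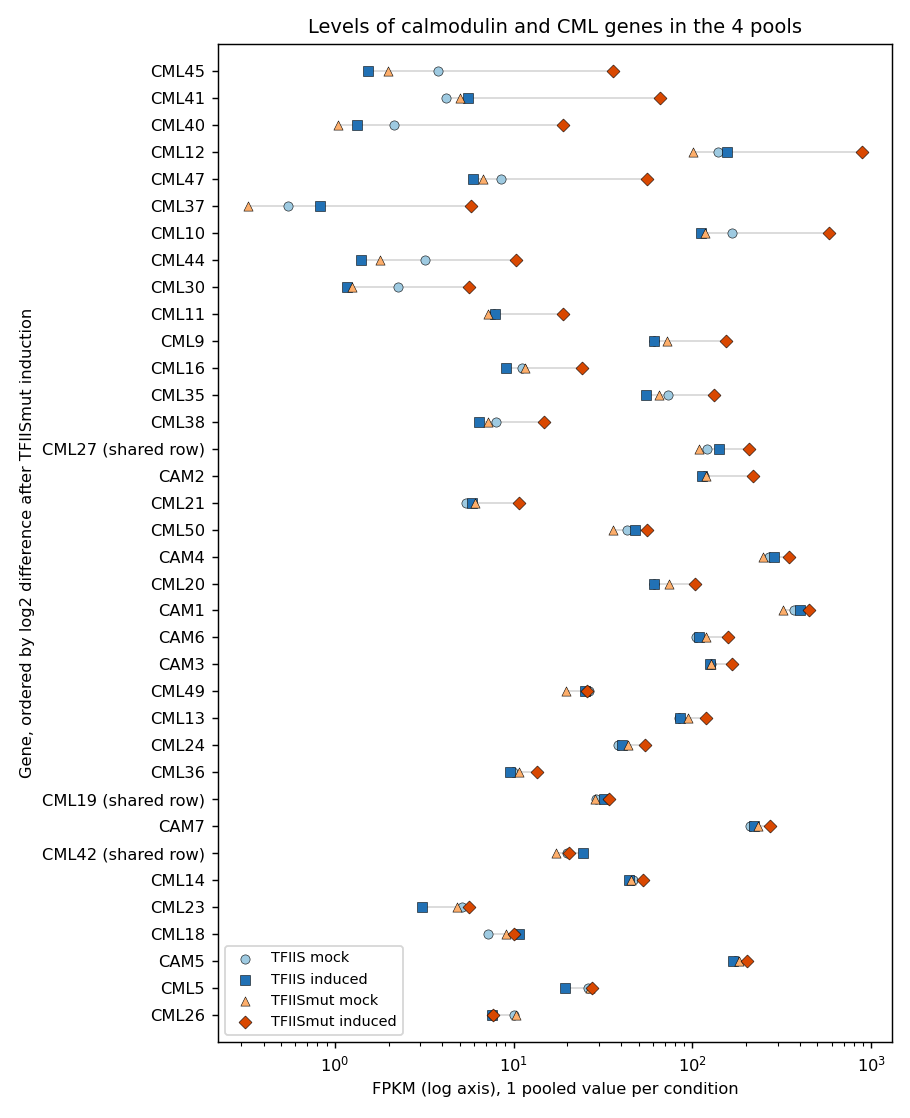
FPKM on a log axis for the 36 members that reach 5 FPKM in at least 1 pool, 1 row per gene ordered by the log2 difference after TFIISmut induction, with 1 symbol per pooled condition. In the upper rows, from CML45 to CML35, the TFIISmut induced symbol stands apart to the right of the other 3, and the rows of CAM1 to CAM7 show smaller gaps.

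The remaining members passed by smaller margins. CML11 (AT3G22930), a close relative of the calmodulins that shares a coding stretch of 49 identical bases with CML8, stood at 7.75, 7.89, 7.18 and 18.9 FPKM, a log2 difference of 1.28. CML16 was at 11.2, 9.10, 11.5 and 24.2 FPKM and CML35 at 73.1, 54.7, 65.2 and 132 FPKM, with log2 differences of 1.01 and 1.0, just inside the threshold. Just outside it lay CML38, known for its response to low oxygen, at 7.96, 6.43, 7.21 and 14.8 FPKM with 0.95. The shared row of CML27 and RABA6B followed at 121, 141, 110 and 207 FPKM with 0.91. CML9, CML16 and CML35 lay under the threshold when the pools were rescaled without organelle rows (0.94, 0.88 and 0.87), so these 3 calls depend on the scaling, and CML35 also missed it against the TFIIS mock pool, at 0.84.

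For the calmodulins, all eligible, the level was above 100 FPKM in every pool and no difference reached the threshold. After TFIISmut induction 0 of 7 were higher, against 5.51% of all eligible rows, which is no result about so few genes. CAM1 (AT5G37780) was the highest, at 371 and 401 FPKM in the TFIIS line and at 321 and 446 FPKM in the TFIISmut line. CAM4 (AT1G66410), which encodes the same protein in the coding model compared here, stood at 267, 287, 247 and 349 FPKM. Both had the TFIISmut induced pool above the others by less than the threshold, with 0.47 and 0.49 over mock. CAM7 (AT3G43810) stood at 209, 220, 232 and 272 FPKM, CAM5 (AT2G27030) at 173, 170, 183 and 202 FPKM and CAM3 (AT3G56800) at 127, 126, 126 and 167 FPKM. CAM6 (AT5G21274) was at 104, 109, 119 and 159 FPKM. Log2 differences from TFIISmut mock were 0.86 for CAM2, described above, 0.23 for CAM7, 0.14 for CAM5, 0.40 for CAM3 and 0.41 for CAM6. All 7 lay above 0 as deposited, but that of CAM5 was -0.04 under quantile normalization. The median of the 7 was 0.41, against 0.03 over all measured rows of the table.

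Other CML genes of high level, and the second touch gene, stayed under the threshold. CML13 (AT1G12310), which with CML14 serves as a light chain of myosins, was at 84.6, 84.7, 94.1 and 119 FPKM. CML20 (AT3G50360), a centrin-like protein, was at 61.2, 61.3, 74.2 and 104 FPKM. CML24 (AT5G37770), the touch gene TCH2, had 38.2, 40.5, 43.6 and 54.5 FPKM, for a log2 difference of 0.32. The touch-named genes TCH2 and TCH3 thus differed in size, 0.32 against 3.13. Of the 13 eligible CML genes with a row of their own that passed in neither direction, 12 lay above 0, and the range was -0.39 for CML26 to 0.95 for CML38. Members that no pool brought to 5 FPKM numbered 21, of which 4 (CML1, CML29, CML33 and CML34) were listed at 0 in all pools and 10 stayed above 0 but under 1 FPKM. CML28, at 0.609, 0.500, 0.213 and 2.50 FPKM, had a log2 difference of 1.53 at a level under the criterion.

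Counted in FPKM, the shares of calmodulins and CML genes differed in TFIISmut induced from those of the other pools. The calmodulins summed to 1367 and 1424 FPKM in the TFIIS line and to 1349 and 1813 FPKM in the TFIISmut line. CML genes with a row of their own summed to 873, 799, 799 and 2515 FPKM. The first 3 pools lay close together in both sums. Calmodulins made up 61.0%, 64.0%, 62.8% and 41.9% of the total of both. TCH3 and CML10 alone gave 58.4% of the CML sum in TFIISmut induced, against 27.3% in TFIISmut mock.

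**Figure D2:**
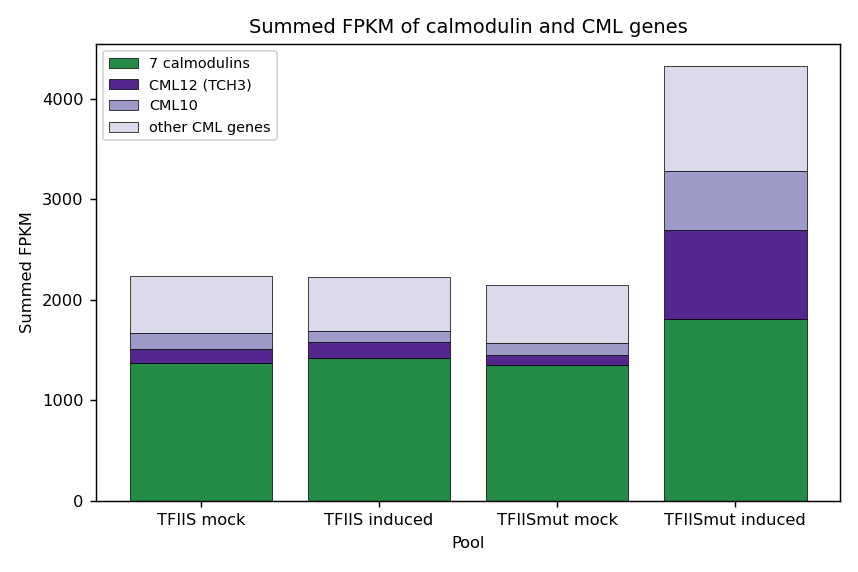
Summed FPKM of the members with a row of their own in each pool, split into the 7 calmodulins, TCH3 (CML12), CML10 and the other CML genes; bars start at 0 and have no error, since each pool is a single value. The CML parts are larger in TFIISmut induced, at 2515 FPKM in sum against 799 to 873 in the other pools.

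After induction of the unmutated protein no member passed the rule of size, which at the low shares over all rows is no result about the family. For TFIIS induced against TFIIS mock, 31 members were eligible, 0 were 2-fold higher and 0 lower, while 0.690% of all eligible rows were higher and 0.789% lower. The measured members, those reaching 1 FPKM in either pool, had a median log2 difference of -0.02. Their range was -0.92 for CML45 to 0.52 for CML18, and 18 of 40 lay above 0, against 53.0% of all measured rows. In the TFIISmut line 39 of 43 measured members lay above 0, with a median of 0.47; of all measured rows 53.4% lay above 0. With TFIISmut mock as control for TFIIS induced, 0 of 30 eligible members passed in either direction, against 0.633% higher and 0.256% lower of all eligible rows. The estradiol treatment was the same in each line, but the level of the TFIIS row was higher in the TFIIS line, as given above.

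**Figure D3:**
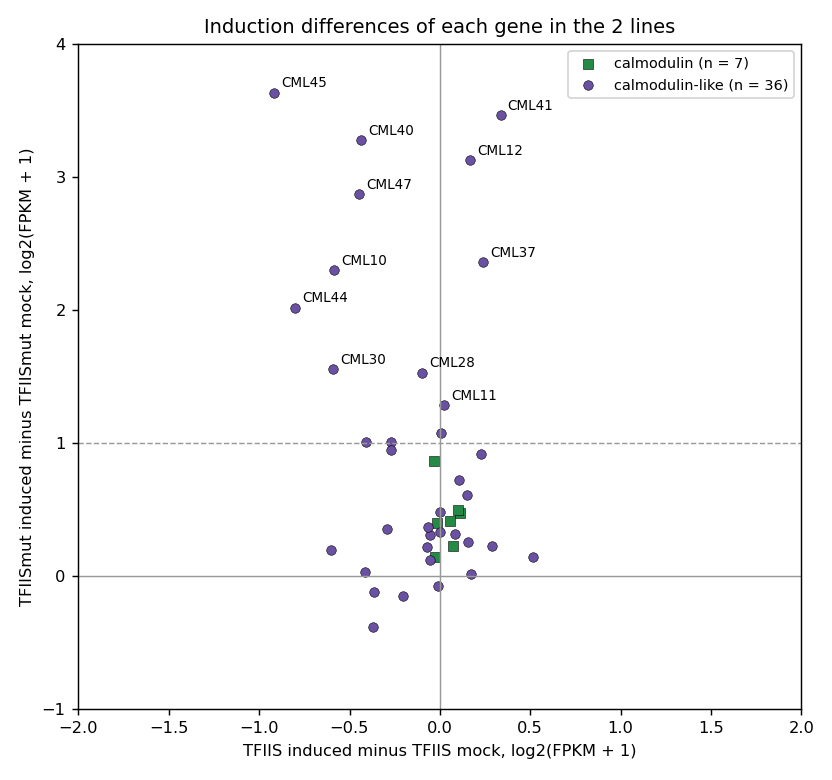
Log2(FPKM + 1) difference between induced and mock in the TFIIS line (horizontal) and the TFIISmut line (vertical) for the 43 members that reach 1 FPKM in a pool, squares for calmodulins and circles for CML genes; the dashed line marks the 2-fold threshold. Points spread upward to 3.63 and stay between -0.92 and 0.52 sideways.

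Between the induced pools, which compare the mutated with the unmutated protein at the same treatment, 14 of 36 eligible members were 2-fold higher with TFIISmut and 0 lower, against 5.34% and 2.57% of all eligible rows. This comparison shares its TFIISmut induced pool with that against mock. CML30, CML37, CML40, CML44 and CML45 were eligible only through that pool, which fixed their direction. With 5 FPKM required in at least 1 of the other pools, a criterion chosen after seeing the data, 9 of 31 members were higher. The share of all rows so chosen was 3.36%. The 14 were the 13 named above and CML38, whose log2 difference was 1.09. CML45 had the largest value, 3.87, followed by CML41 at 3.34, CML40 at 3.09 and CML47 at 3.04. TCH3 stood at 2.50 and CML10 at 2.38. Of the calmodulins CAM2 was the highest, at 0.95, and CAM1 the lowest, at 0.15.

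Between the mock pools no member passed the rule of size, which at the low shares over all rows is again no result about the family. For TFIISmut mock against TFIIS mock, 0 of 31 eligible members were higher and 0 lower, against 0.248% and 0.787% of all eligible rows. The median over 40 measured members was -0.02, and the range was -0.68 for CML45 to 0.30 for CML18. With the TFIIS mock pool in place of its own, TFIISmut induced had 12 of 36 eligible members 2-fold higher, and 0 lower. The shares of all eligible rows were 4.73% and 2.39%. The TFIISmut induced pool is the same here, so this is not a separate observation. CML30, CML37, CML40, CML44 and CML45 were among the 12 and eligible only through that pool, which fixed their direction. No count without them was made for this control. Of the 13 members named above, 7 (CML10, CML30, CML35, CML40, CML44, CML45 and CML47) were higher in TFIIS mock than in TFIIS induced and in TFIISmut mock. The share of all rows with this order was not counted, and the choice of the 13 favours a low TFIISmut mock value. The count of 7 is thus no result about the family. For those 13 the other 3 pools spanned a median of 0.46 on the log2 scale, from 0.12 for CML11 to 0.92 for CML45. TFIISmut induced lay above each of the others in all 13. Against TFIISmut mock this was fixed by the choice of the 13. For the 5 of them under 5 FPKM in the other pools it was fixed against each pool. TFIISmut induced was the highest pool for 32 of the 36 members that reach 5 FPKM, and for 43.5% of all such rows. For the 5 members that reach this level in that pool alone, the highest pool was fixed by the criterion. Of the 31 members at 5 FPKM in at least 1 of the other pools, it was the highest for 27, against 41.3% of all rows so chosen. Over the 36, TFIIS induced was the highest for 2 members (25.2% of all such rows), TFIISmut mock for 1 (14.6%) and TFIIS mock for 1 (16.6%).

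Gene features overlapped between the members that passed and those that did not. The PROSITE EF-hand pattern was searched in the translated 450-base coding model of calmodulins and the longest coding model of CML genes. Each calmodulin held 4 matches. The 13 higher CML genes held a median of 3, from 1 in CML40 and CML45 to 6 in TCH3, and the 13 eligible CML genes that did not pass a median of 3, from 1 to 4. A single coding exon was annotated in 9 of the 13 higher and in 9 of the 13 others, and in 0 of the 7 calmodulins. Median coding lengths were 558 bases in the higher and 510 bases in the other genes.

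In the 500 bases before the annotated gene start, searched on both strands, CGCG, the core of the element bound by calmodulin-binding CAMTA factors, was present in 5 of the 13 higher CML genes (CML9, CML30, CML35, CML40 and CML45). It was present in 3 of the 13 other eligible CML genes and in 18.0% of all 27443 protein-coding nuclear genes. CGCGTT, a longer form that contains CGCG, was found in 0 of the 13, in CML23 and CML24 among the others, and in 4.61% of all genes. TTGAC, the core of the W-box bound by WRKY factors, was found in 7 of 13 in each set and in 67.4% of all genes. These counts describe letters in a window and not binding. For TCH3 the window lies almost wholly within the neighbouring CML10 gene.

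Other genes of calcium signalling were examined in 7 lists with 123 genes in the table. Counts are those of the listed genes, and the lists were not checked for holding every gene of a family. That of the cyclic nucleotide-gated channels held 15 genes, of which 13 were in the table. After TFIISmut induction 12 of their 76 eligible genes were 2-fold higher and 3 lower, against 5.51% and 1.69% of all eligible rows. After TFIIS induction 0 of 68 passed in either direction, and the shares over all eligible rows were 0.690% and 0.789%. With such shares, a count of 0 in a short list is no result about it. Of the 12 higher genes, 5 (CNGC10, CNGC13, CNGC20, ACA13 and SARD1) lay under 5 FPKM in the other 3 pools and were eligible only through TFIISmut induced. Of the calmodulin-regulated calcium pumps, which carry calcium out of the cytosol, 4 of 8 eligible genes were higher and 1 lower, with a list median of 0.97 over 8 measured genes. ACA13 stood at 0.314, 0.274, 0.330 and 8.45 FPKM and ACA12 at 6.79, 5.96, 4.21 and 21.1 FPKM. ACA1 and ACA2 passed with log2 differences of 1.06 and 1.05, and the lower pump was ACA4, at 55.9, 73.6, 65.8 and 32.2 FPKM. Of the cyclic nucleotide-gated channels, which admit calcium and bind calmodulin, 4 of 10 were higher and 1 lower, with a median of 0.11; CNGC13 stood at 2.53, 2.49, 1.69 and 7.49 FPKM, and CNGC10, CNGC3 and CNGC20 also passed. The lower channel was CNGC2, at 28.7, 35.8, 34.5 and 16.2 FPKM. Pumps and channels thus had members on both sides.

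Of the CAMTA and CBP60 transcription factors, 2 of 12 were higher and 0 lower, and the median was 0.23. These were the CBP60-family genes SARD1, at 2.71, 2.14, 1.38 and 20.6 FPKM, and CBP60G, at 6.28, 2.74, 3.55 and 15.2 FPKM, which promote salicylic acid synthesis. Both had TFIIS mock above TFIIS induced and TFIISmut mock, an order whose share over all rows was not counted. Of the calcium-dependent protein kinases, which carry EF hands and a kinase in a single protein, 2 of 22 were higher, near the share over all rows, CPK29 at 9.86, 9.02, 9.21 and 25.9 FPKM and CPK4 at 15.7, 14.4, 14.2 and 33.6 FPKM. The calcineurin B-like sensors, another EF-hand family, had 0 of 6 higher and 0 lower, with 1 of 7 measured genes above 0 and a median of -0.27. Their partner kinases of the CIPK family had 0 of 15 higher and 1 lower, CIPK20, at 5.28, 6.67, 13.1 and 2.93 FPKM. The glutamate receptor-like channels had 0 of 3 in either direction. Of the 7 lists, those of the pumps, CNGC channels, CAMTA and CBP60 factors and CPK kinases held the 12 higher genes.

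**Figure D4:**
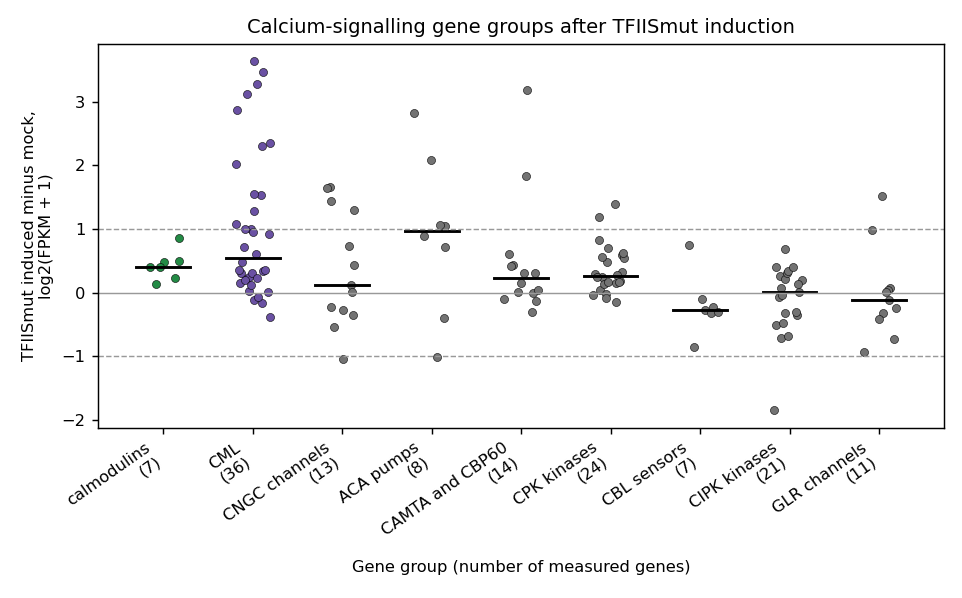
Log2(FPKM + 1) difference between TFIISmut induced and TFIISmut mock for each measured gene (1 FPKM or more) of the calmodulins, the CML genes and 7 further calcium-signalling groups, with a black line at each group's median and dashed lines at the 2-fold threshold. The highest point is CML45 at 3.63, and among the further groups SARD1 at 3.18 and ACA13 at 2.83 lie highest; the CBL group lies mostly under 0, with a median of -0.27.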

How the data were processed

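Libraries were made from RNeasy-extracted RNA with a TruSeq Stranded mRNA kit, per the labels' protocols. The deposited FPKM values are 1 per gene and condition: the authors combined 3 libraries, by means not given in the sources used here. FPKM as the unit was inferred from the table's layout. Bowtie2 2.3.5 was used, per the submitters' processing notes, with quantifier, build and annotation not given in the sources used here. Without the depth of the libraries, neither intervals nor floors could be set.

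Of all rows, 38 with repeated identifiers were dropped and 32667 used. A gene at 0 in a compared pool left that comparison. Genes and coordinates come from RefSeq TAIR10.1 by identifier; all 57 member rows matched. Calculations used Python 3.11.15 with pandas 2.3.3 and Biopython 1.88. The rule of size was run on simulated pools in which well-expressed genes were changed far beyond the threshold. That checks the calculation alone and not the error of the calls made here. The members and gene lists were chosen with earlier results of these data known. Named are the calmodulins, TCH2, TCH3, members that passed the rule or reached 100 FPKM, those at the threshold, and up to 4 genes per list; CML8, CML18, CML26, CML28, CML43, CML46, ACA4 and CNGC2 were added after their values were seen. The label "2-fold" means a difference of 1 in log2(FPKM + 1).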

Additional observations from a re-analysis of the deposited data

Results flagged for a closer look

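In 8 of the 13 CML genes that were 2-fold higher after TFIISmut induction, the pools of the lines point in opposite directions. In these the induced pool of the TFIIS line was below its mock by 0.1 or more on the log2 scale. Of the 8, CML30, CML40, CML44 and CML45 lay under 5 FPKM in both pools of the TFIIS line and were not eligible there. The share of all rows with this pattern was not counted. The difference between the lines was not tested, since each condition is a single pooled value. Subtracting the effect in the TFIIS line from that in the TFIISmut line gave 4.55 for CML45, 3.72 for CML40, 3.32 for CML47 and 2.89 for CML10. It was 2.82 for CML44, 2.15 for CML30, 1.42 for CML35 and 1.28 for CML16. In 7 of the 8, all but CML16, TFIIS mock was above TFIISmut mock as well as TFIIS induced, and the share of all rows with this order was not counted either. When TFIIS induced was set against TFIISmut mock, 5 of the 8 still lay 0.1 or more below it.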

How the results depend on the processing

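No paired analysis was possible because the table holds 1 pooled value per condition with no replicate numbers; leaving out a library or adding a replicate block was not possible for the same reason. For TFIISmut induced against mock, the count of higher members was 13 and ranged from 8 to 14 over the settings tried; with a log2 threshold of 1.5 it was 9, and for the induced pools that threshold gave 9 in place of 14. With 5 FPKM required in at least 1 of the pools other than TFIISmut induced, the counts were 8 in place of 13 and 9 in place of 14, since members eligible through that pool alone then leave. A mean of 5 FPKM over the 4 pools gave 10 against mock, of which CML40 and CML45 still qualified through TFIISmut induced. Against mock it was 10 without organelle rows at a common sum, 10 under quantile normalization and 11 at a common median. The 0 members called in the other 2 comparisons, and the 0 called lower in all 4, stayed at 0 in each setting run for them; the settings chosen after seeing the data were run only for the comparisons of TFIISmut induced. The member median was 0.35 in place of 0.47 without organelle rows and 0.33 under quantile normalization. Without organelle rows it was -0.18 in place of -0.02 for TFIIS induced against mock, where the median of all rows shifted to -0.14; between the induced pools it was 0.40 in place of 0.54 under quantile normalization. The settings on the mean over the pools, on the level in the other pools, on shared rows and on the threshold of 1.5 were chosen after seeing the data. With no depth or replicates, differences of any size could not be tested against chance.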
